A study of Mus musculus with 9 samples.

Results

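The 50 genes described here encode the machinery of cell division, and they were read in γδ T cells, a small lineage of T lymphocytes with its own form of T cell receptor. They were taken by name as 19 genes of DNA synthesis (S phase), 21 genes of mitosis, 6 cyclins and kinases of the first gap phase (G1) and 4 inhibitors of cyclin-dependent kinases. A gene entered with the array row of highest mean among the rows that carry its symbol alone. This gave values for 48 genes of the 22180 named genes on the array, namely 18 of S phase, 20 of mitosis, all 6 of G1 and all 4 inhibitors. Ccne2 and Ccnb1 were not analysed here.

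The study set subsets of γδ T cells of C57BL/6 mice side by side on Affymetrix whole-transcript arrays, with 3 arrays for each of 3 subsets. IELs, the intraepithelial lymphocytes that lie between the epithelial cells of the gut, came from the intestine, and their descriptions name the small intestine. Type-1 cells and Naive-like cells both came from peripheral lymph nodes (axillary, brachial and inguinal). No group carries a mutation or a treatment in the labels, and neither the age of the mice nor the sort gates are stated in the sources used. Nor is it stated whether an array held RNA of 1 mouse or of a pool. The labels call the arrays biological replicates, so the p-values below measure the spread between these arrays. IELs differ from both other subsets in subset and in tissue at once, and these cannot be told apart.

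A dividing cell passes through G1, copies its DNA in S phase and separates the copies in mitosis. Many S phase genes are held silent by retinoblastoma proteins bound to E2F factors and are released when cyclin-dependent kinases phosphorylate those proteins. Most mitotic genes are switched on later, through a promoter element called the cell cycle genes homology region (CHR) and nearby CCAAT boxes, by complexes that include B-Myb and Foxm1. Resting T cells keep both programmes low, and the mRNA of Mki67 or Top2a is often read as a sign of cycling cells.

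The promoters of these genes carry such motifs, and 7 are printed because the results below turn on the 2 programmes. Mki67, Top2a, Cdk1 and Kif11 are mitotic genes that passed the test in IELs, Cdc6 is an S phase gene that passed, and Mcm5 and Mcm6 are S phase genes that did not. Each line holds the 200 bases before the annotated start, read 5′ to 3′ on the strand of the gene, from RefSeq on GRCm38.p6. The stretches are Mki67 at chr7:135716380-135716579 (minus strand), Top2a at chr11:99024190-99024389 (minus), Cdk1 at chr10:69352913-69353112 (minus), Kif11 at chr19:37376182-37376381 (plus), Cdc6 at chr11:98907951-98908150 (plus), Mcm5 at chr8:75109309-75109508 (plus) and Mcm6 at chr1:128359706-128359905 (minus). Capitals mark the CHR (TTTGAA), the CCAAT box (CCAAT) and a loose E2F motif (TTTNNCGC), each searched on both strands, with overlapping matches merged into 1 run.
Mki67: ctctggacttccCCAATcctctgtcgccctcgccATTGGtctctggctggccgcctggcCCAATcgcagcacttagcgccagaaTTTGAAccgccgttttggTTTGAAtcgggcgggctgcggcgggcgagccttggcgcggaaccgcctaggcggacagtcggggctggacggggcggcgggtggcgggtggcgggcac
Top2a: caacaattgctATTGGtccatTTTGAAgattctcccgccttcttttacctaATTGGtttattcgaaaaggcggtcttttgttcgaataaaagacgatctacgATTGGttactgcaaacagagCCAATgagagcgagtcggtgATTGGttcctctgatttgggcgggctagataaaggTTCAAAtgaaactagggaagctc
Cdk1: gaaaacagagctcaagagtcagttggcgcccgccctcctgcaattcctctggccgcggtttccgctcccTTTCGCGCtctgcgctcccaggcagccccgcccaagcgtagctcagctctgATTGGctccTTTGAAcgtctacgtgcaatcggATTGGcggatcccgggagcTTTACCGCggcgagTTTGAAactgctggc
Kif11: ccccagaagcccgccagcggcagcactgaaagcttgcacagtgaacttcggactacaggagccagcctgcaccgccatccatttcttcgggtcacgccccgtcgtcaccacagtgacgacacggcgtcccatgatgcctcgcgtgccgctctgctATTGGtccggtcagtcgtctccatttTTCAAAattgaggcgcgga
Cdc6: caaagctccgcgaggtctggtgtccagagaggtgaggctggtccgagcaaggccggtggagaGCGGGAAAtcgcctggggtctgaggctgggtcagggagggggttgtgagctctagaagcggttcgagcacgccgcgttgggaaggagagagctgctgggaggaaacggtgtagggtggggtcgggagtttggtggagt
Mcm5: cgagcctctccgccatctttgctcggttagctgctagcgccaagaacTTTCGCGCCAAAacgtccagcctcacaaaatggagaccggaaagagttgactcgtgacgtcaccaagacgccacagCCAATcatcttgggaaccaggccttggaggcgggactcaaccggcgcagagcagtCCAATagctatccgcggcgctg
Mcm6: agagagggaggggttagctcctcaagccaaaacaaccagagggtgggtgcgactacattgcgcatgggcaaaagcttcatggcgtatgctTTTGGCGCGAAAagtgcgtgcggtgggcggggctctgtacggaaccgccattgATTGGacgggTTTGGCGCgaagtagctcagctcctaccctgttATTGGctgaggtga

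In windows of 300 bases, which reach from 250 before the start to 50 after it, 16 of the 21 mitotic genes had a RefSeq window. The CHR stood in 11 of these 16 windows (68.8%), against 17.9% of all 32851 promoter windows. A CCAAT box stood in 14 of them (87.5%), against 37.4% of all windows, and all 11 windows with a CHR also held a CCAAT box, against 6.95% of all windows with both. The E2F motif stood in 1 mitotic window (6.25%), that of Cdk1, against 5.17% of all windows. Of the S phase genes 17 had windows, 19 in all. The E2F motif stood in 9 of these 19 windows (47.4%), a CCAAT box in 13 (68.4%) and the CHR in 3 (15.8%). Among mitotic genes that passed in IELs, the windows of Birc5 and Nusap1 held no CHR. A match describes the letters of a window and does not show that a factor binds there.

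All 9 arrays had medians between 4.25 and 4.43 on the log2 scale of the deposited values, and the correlation over all genes between 2 arrays of 1 subset was 0.947 to 0.982. Cd3d, Cd3e and Cd3g, which encode chains of the T cell receptor complex, lay between 10.06 and 12.32 on all arrays of the 3 subsets, far above the array medians. Of the 48 genes, 29 had a mean above the median gene mean of 4.52. No detection call comes with the values, which leaves the background of dim genes unknown, and differences of dim genes are compressed on such arrays. Array values of different genes rest on different probes and are not set against each other. In bulk RNA a share of cycling cells and the amount of RNA per cycling cell cannot be told apart.

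In IELs against Naive-like cells, some mitotic genes and a few S phase genes rose. Of the 48 genes, 12 rose in IELs and 0 fell, where 3.57% of all 22180 genes tested rose and 1.62% fell, 5.19% in all. The 12 comprised 8 of 20 mitotic genes, 3 of 18 S phase genes, 0 of 6 G1 cyclins and kinases and 1 of 4 inhibitors. The median difference was 0.65 for the mitotic genes and 0.24 for the S phase genes on the log2 scale, against -0.01 for all genes. All 20 mitotic genes lay above 0 by sign, as did 16 of 18 S phase genes and 10903 of the 22180 genes. The test was limma's, two-sided, with Benjamini-Hochberg adjustment over all 22180 genes and a threshold of 0.05. Each difference below is given as IELs minus Naive-like cells on the log2 scale ± SE with n = 3 arrays per subset. The SE is limma's, from 1 spread per gene shared by all 3 subsets and moderated over all genes. A larger spread of the IEL arrays than of the others is thus not shown by the SE.

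**Figure D1:**
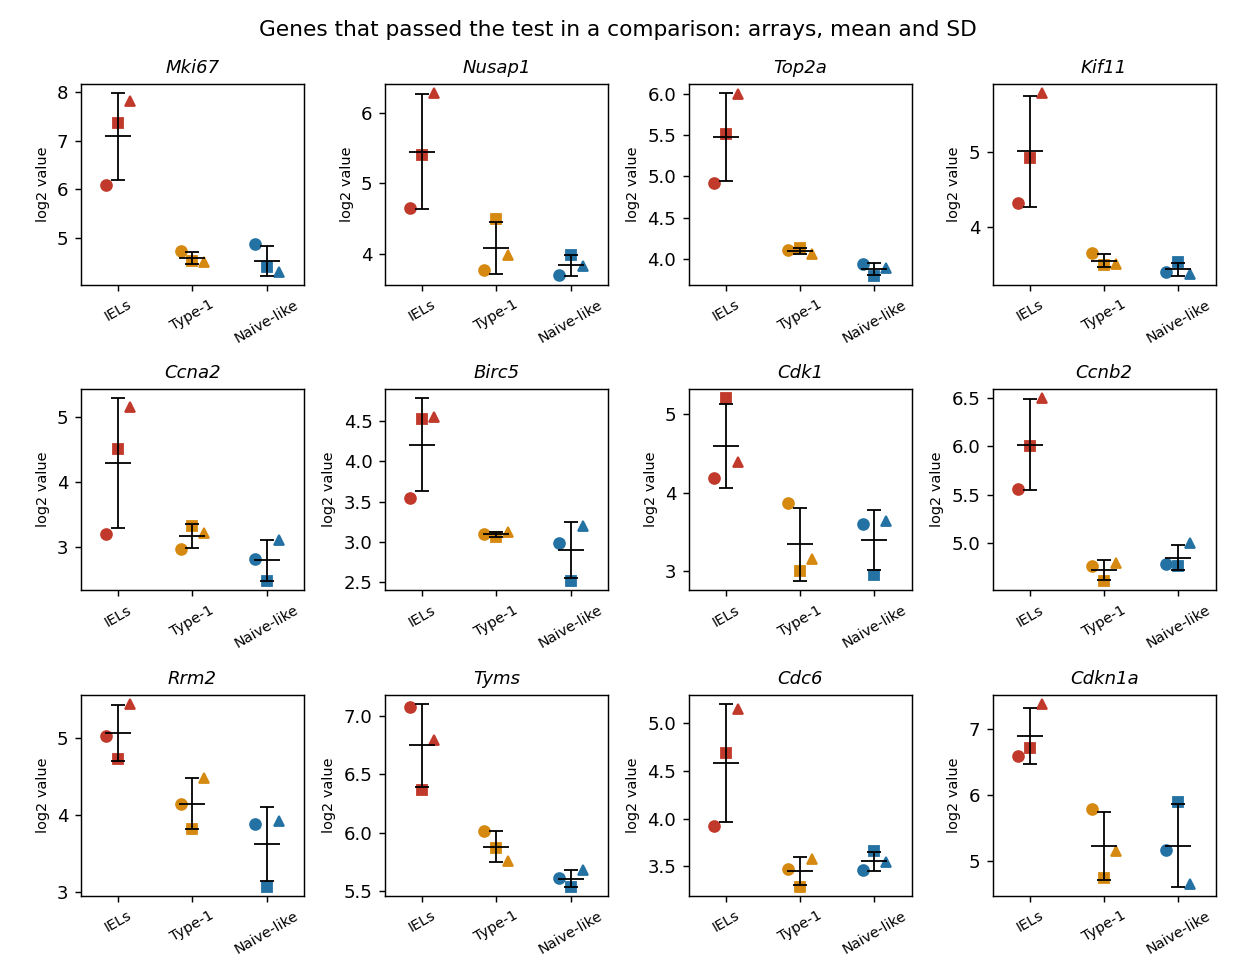
Log2 values of the 12 genes that passed the test, 1 panel per gene, with IELs, Type-1 and Naive-like cells from left to right. Points are arrays (circle, square and triangle for replicates 1, 2 and 3), and the dash and bar are the mean and SD of 3 arrays. The 3 IEL points lie above all Naive-like points in each panel, and each panel has its own log2 axis.

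Mki67, whose protein coats chromosomes during mitosis, had the largest difference of the 48 genes. Its values were 6.09, 7.35 and 7.82 in IELs, 4.74, 4.53 and 4.51 in Type-1 cells and 4.87, 4.42 and 4.30 in Naive-like cells. All 3 IEL arrays lay more than 1 log2 unit above every lymph node array, while the 2 lymph node subsets overlapped. The difference was 2.56 ± 0.36 (5.88-fold, adjusted p = 7.96e-04). Top2a, the topoisomerase that untangles replicated DNA, read 4.93, 5.51 and 5.99 in IELs, 4.11, 4.13 and 4.06 in Type-1 cells and 3.94, 3.80 and 3.90 in Naive-like cells. The IEL arrays stood clear of both other subsets, and the Type-1 arrays lay just above the Naive-like arrays without overlap. Its difference was 1.60 ± 0.25 (adjusted p = 0.0016).

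The cyclins and the kinase of mitotic entry moved with them. Cdk1, the kinase that drives cells into mitosis, had 4.19, 5.21 and 4.39 in IELs, 3.87, 2.99 and 3.15 in Type-1 cells and 3.60, 2.94 and 3.64 in Naive-like cells. IEL replicate 2 was the highest array and no lymph node array reached the lowest IEL array. Its difference was 1.20 ± 0.32 (adjusted p = 0.0498), close to the threshold. Ccnb2, a B-type cyclin that activates Cdk1, had 5.55, 6.00 and 6.49 in IELs, 4.77, 4.61 and 4.80 in Type-1 cells and 4.78, 4.77 and 5.00 in Naive-like cells. The lymph node arrays were close together and below all IEL arrays, with a difference of 1.16 ± 0.24 (adjusted p = 0.010). Ccna2, the A-type cyclin of S phase and mitotic entry, had 3.20, 4.52 and 5.16 in IELs, 2.97, 3.33 and 3.22 in Type-1 cells and 2.82, 2.48 and 3.11 in Naive-like cells. IEL replicate 1 lay within the range of Type-1 cells and just above the Naive-like arrays, and the difference was 1.50 ± 0.39 (adjusted p = 0.048).

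Genes of the spindle and of chromosome segregation completed the 8. Kif11, the kinesin that pushes spindle poles apart, had 4.32, 4.92 and 5.80 in IELs, 3.65, 3.49 and 3.51 in Type-1 cells and 3.40, 3.53 and 3.36 in Naive-like cells. Both lymph node subsets stayed in a narrow band below the IEL arrays, and the difference was 1.58 ± 0.30 (adjusted p = 0.0071). Nusap1, which bundles spindle microtubules, had 4.65, 5.40 and 6.29 in IELs, 3.77, 4.50 and 3.98 in Type-1 cells and 3.70, 3.99 and 3.82 in Naive-like cells. Its IEL arrays again ran above all others, with a difference of 1.61 ± 0.35 (adjusted p = 0.015). Birc5, the chromosomal passenger protein survivin, had 3.54, 4.52 and 4.55 in IELs, 3.10, 3.06 and 3.12 in Type-1 cells and 2.99, 2.51 and 3.20 in Naive-like cells. The IEL arrays lay above all others, Type-1 cells lay within the range of Naive-like cells, and the difference was 1.30 ± 0.28 (adjusted p = 0.015).

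The other 12 mitotic genes did not pass, with differences between 0.18 and 0.94. Tpx2, a spindle assembly factor, was nearest, at 4.19, 4.96 and 5.46 in IELs, 3.99, 4.18 and 4.49 in Type-1 cells and 4.16, 3.63 and 3.98 in Naive-like cells (0.94 ± 0.30, adjusted p = 0.11). The IEL arrays did not overlap the Naive-like arrays, although the lowest of them lay only just above. Aurkb, the kinase of the chromosomal passenger complex, had 4.54, 5.09 and 5.80 in IELs, 4.32, 4.34 and 4.23 in Type-1 cells and 4.25, 4.47 and 4.49 in Naive-like cells (0.74 ± 0.27, adjusted p = 0.20). Plk1, a kinase of mitotic entry, differed by 0.57 ± 0.26, and the spindle checkpoint kinases Bub1 and Bub1b by 0.40 ± 0.21 and 0.30 ± 0.20. The kinetochore genes Cenpe and Cenpf, the kinesins of cytokinesis Kif20a and Kif23, the kinase Aurka and Cdc20, which activates the anaphase-promoting complex, lay between 0.25 and 0.40. Foxm1, a transcription factor of mitotic genes, had the smallest difference of the list, at 3.41, 4.54 and 4.08 in IELs, 4.28, 4.15 and 3.56 in Type-1 cells and 3.78, 3.79 and 3.93 in Naive-like cells (0.18 ± 0.28, adjusted p = 0.90). Its 3 subsets overlapped throughout. Over the list, 13 of 20 mitotic genes had every IEL array above every Naive-like array, where 10.9% of all genes did.

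Among S phase genes those that rose supply nucleotides or license origins. Rrm2, the regulated subunit of ribonucleotide reductase, had 5.03, 4.72 and 5.44 in IELs, 4.14, 3.82 and 4.48 in Type-1 cells and 3.88, 3.07 and 3.92 in Naive-like cells. The IEL arrays lay above all others and Type-1 cells overlapped Naive-like cells, and the difference was 1.44 ± 0.28 (adjusted p = 0.0085). A second, dimmer row of Rrm2 differed by 0.35 ± 0.23 (adjusted p = 0.61), and the mean of both rows by 0.89 (adjusted p = 0.034). Tyms, the thymidylate synthase, had 7.07, 6.37 and 6.80 in IELs, 6.02, 5.87 and 5.75 in Type-1 cells and 5.61, 5.54 and 5.68 in Naive-like cells. All 3 subsets were separate, in that order, and the difference of IELs was 1.14 ± 0.21 (adjusted p = 0.0059). Cdc6, which loads the replicative helicase onto origins, had 3.92, 4.68 and 5.14 in IELs, 3.48, 3.29 and 3.58 in Type-1 cells and 3.46, 3.66 and 3.55 in Naive-like cells. The lowest IEL array lay close to the lymph node arrays, and the difference was 1.03 ± 0.27 (adjusted p = 0.0497).

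The replicative helicase itself did not pass in any of its 6 measured MCM subunits. Mcm4 differed by 0.76 ± 0.34 (adjusted p = 0.32) and Mcm5 by 0.50 ± 0.26 (adjusted p = 0.43). Mcm5 had 6.52, 7.05 and 7.25 in IELs, 5.97, 6.56 and 6.36 in Type-1 cells and 6.32, 6.18 and 6.81 in Naive-like cells, so that the lowest IEL array lay within the Naive-like range. Mcm2, Mcm3, Mcm6 and Mcm7 lay between 0.01 and 0.20, and Mcm6 read 7.42, 8.07 and 8.18 in IELs, 7.49, 7.63 and 7.73 in Type-1 cells and 7.84, 7.94 and 7.82 in Naive-like cells. IEL replicate 1 was the lowest Mcm6 array of all 9 and IEL replicate 3 the highest. Cdc45, which activates the helicase, came nearest to the threshold at 4.57, 4.88 and 5.02 in IELs, 3.89, 4.33 and 4.15 in Type-1 cells and 4.08, 4.26 and 4.12 in Naive-like cells (0.67 ± 0.20, adjusted p = 0.089). Its IEL arrays stood above all lymph node arrays.

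Pcna, the sliding clamp of DNA polymerases, had 9.30, 9.17 and 9.35 in IELs, 9.47, 8.82 and 8.94 in Type-1 cells and 8.89, 9.48 and 9.18 in Naive-like cells. The subsets overlapped, and the difference was 0.09 ± 0.23 with a 95% interval of -0.40 to 0.58. Rrm1, the large subunit of ribonucleotide reductase, differed by 0.61 ± 0.31 (adjusted p = 0.43) and the thymidine kinase Tk1 by 0.32 ± 0.22 (adjusted p = 0.63). The E-type cyclin Ccne1, the phosphatase Cdc25a and the transcription factor E2f1 differed by 0.20 to 0.25. E2f2, a second E2F factor, and Cdt1, the partner of Cdc6 in licensing, were the 2 S phase genes below 0 by sign, at -0.19 ± 0.22 and -0.22 ± 0.25. Over the list, 4 of 18 S phase genes had every IEL array above every Naive-like array (22.2%), where 10.9% of all genes did.

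**Figure D2:**
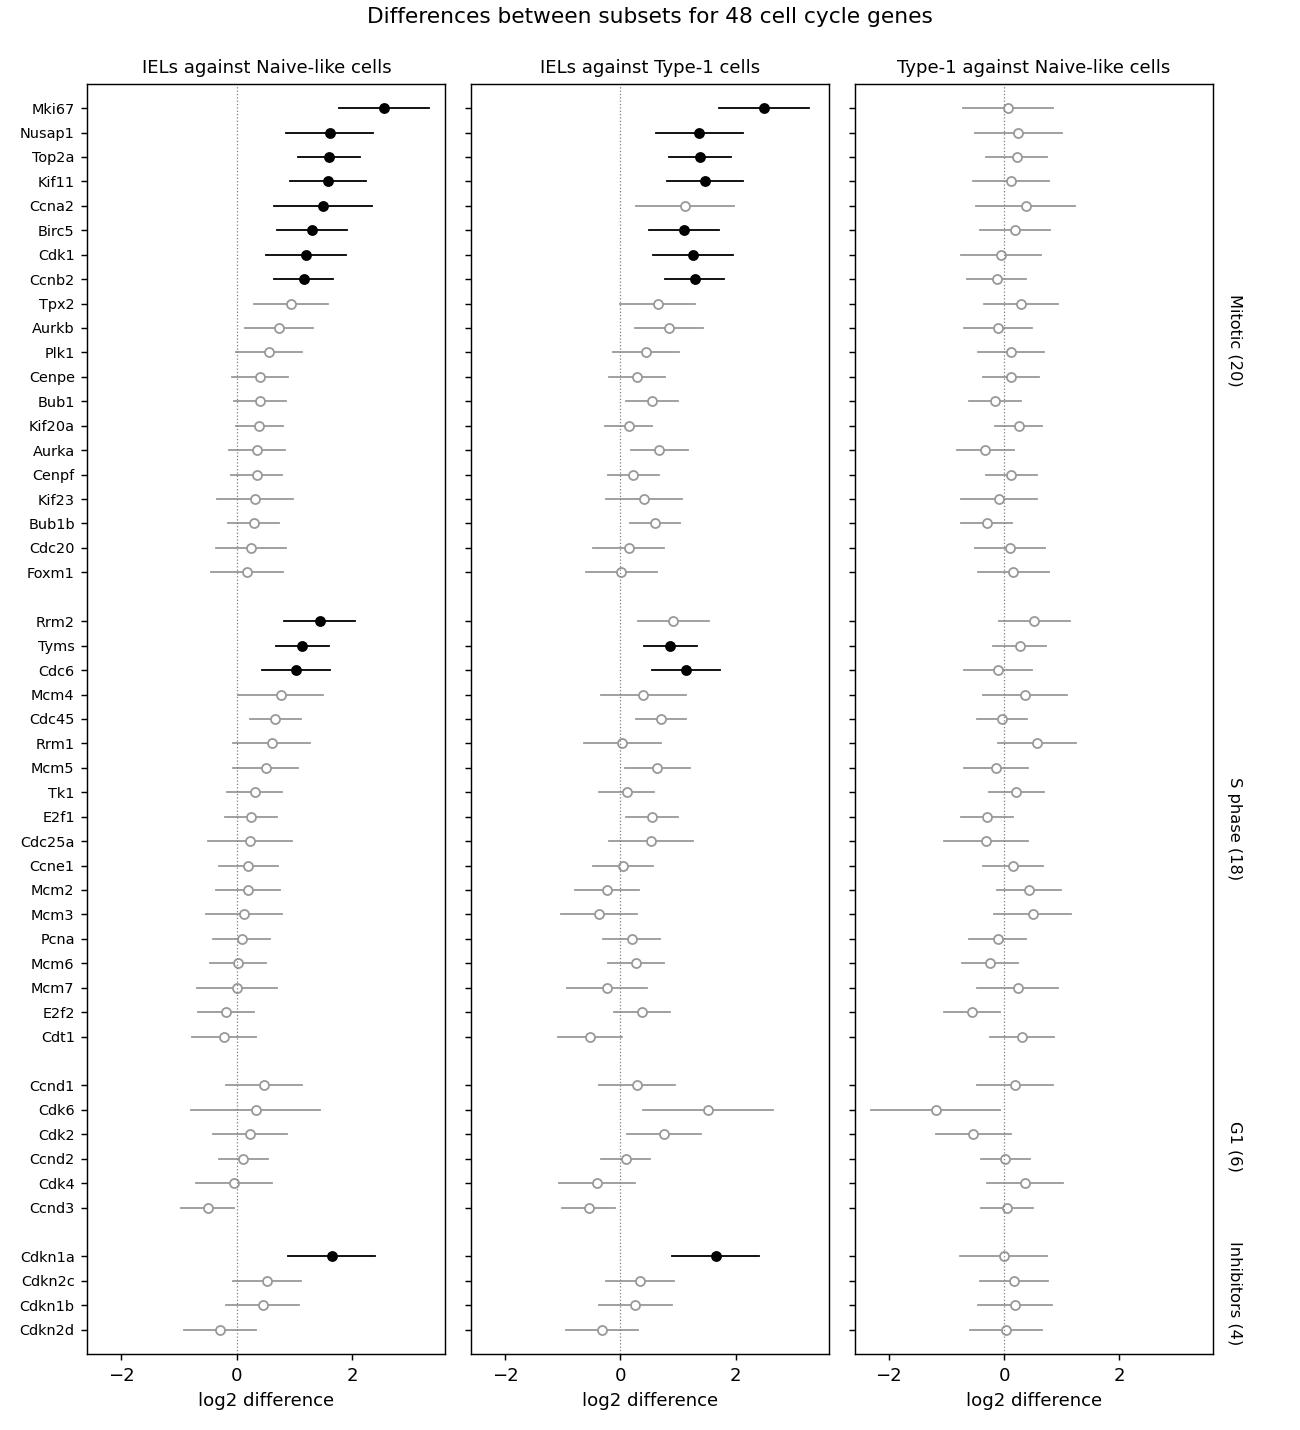
Log2 differences between subsets with 95% intervals for the 48 genes (rows, grouped by list), in 3 panels for IELs against Naive-like cells, IELs against Type-1 cells and Type-1 against Naive-like cells. Filled black points passed the test (12, 10 and 0 genes) and open grey points did not, and the mitotic genes lie to the right of 0 in both panels of IELs.

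The G1 cyclins and kinases, which act before S phase, gave no call. Ccnd2, a D-type cyclin, had 10.42, 10.87 and 10.37 in IELs, 10.40, 10.46 and 10.50 in Type-1 cells and 10.34, 10.57 and 10.39 in Naive-like cells. The subsets overlapped, and the difference of 0.12 ± 0.19 had a 95% interval of -0.31 to 0.54. Ccnd3, another D-type cyclin, had 6.35, 6.96 and 6.55 in IELs, 7.13, 7.09 and 7.31 in Type-1 cells and 7.02, 7.03 and 7.33 in Naive-like cells. Its IEL arrays were the 3 lowest, with a difference of -0.50 ± 0.21 (adjusted p = 0.28), and it was 1 of 48 genes with every IEL array below every Naive-like array, where 9.25% of all genes were. Ccnd1 differed by 0.47 ± 0.30, and the kinases Cdk2, Cdk4 and Cdk6 by 0.23 ± 0.30, -0.05 ± 0.30 and 0.33 ± 0.51.

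Cdkn1a, an inhibitor that binds cyclin-dependent kinases and Pcna, was the inhibitor that rose. It had 6.59, 6.71 and 7.37 in IELs, 5.78, 4.75 and 5.16 in Type-1 cells and 5.17, 5.89 and 4.66 in Naive-like cells. Every IEL array lay above the lymph node arrays, which varied by more than 1 log2 unit within each subset, and the difference was 1.65 ± 0.35 (adjusted p = 0.013). Cdkn1b, a related inhibitor of Cdk2 complexes, differed by 0.45 ± 0.29 (adjusted p = 0.60). Cdkn2c and Cdkn2d, which inhibit Cdk4 and Cdk6, differed by 0.52 ± 0.27 and -0.29 ± 0.29. Cdkn2d read 6.81, 6.79 and 6.78 in IELs, 7.36, 6.80 and 7.16 in Type-1 cells and 7.21, 6.39 and 7.65 in Naive-like cells, and the subsets overlapped.

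With each of the 9 arrays left out in turn, 5 of the 12 calls against Naive-like cells held every time: Mki67, Top2a, Kif11, Rrm2 and Tyms. The number of genes that passed was 7 without IEL replicate 2, 7 without IEL replicate 3, 6 without Naive-like replicate 1 and 7 without Naive-like replicate 3. Ccna2 and Cdc6 passed only when the array left out was IEL replicate 1, with adjusted p up to 0.18 and 0.20 otherwise. Cdk1 was lost without 6 of the arrays (adjusted p up to 0.20), which were IEL replicates 2 and 3, all 3 Naive-like replicates and Type-1 replicate 3. Birc5 was lost without IEL replicate 2 (0.082), IEL replicate 3 (0.082) or Naive-like replicate 2 (0.076). Nusap1 was lost without IEL replicate 2 (0.055), Naive-like replicate 1 (0.070) or Naive-like replicate 3 (0.059), Cdkn1a without IEL replicate 3 (0.073), Naive-like replicate 1 (0.056) or Naive-like replicate 3 (0.067), and Ccnb2 without Naive-like replicate 1 (0.0502). Without IEL replicate 1, 15 genes passed, among them Tpx2 (0.013), Aurkb (0.027) and Plk1 (0.0497).

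IELs against Type-1 cells share the IEL arrays with the comparison above, so the values are given side by side and not counted as a second test. In IELs 10 of the 48 genes rose and 0 fell, where 3.73% of all genes rose and 1.41% fell. They were 7 mitotic genes, 2 S phase genes and Cdkn1a. The median difference was 0.66 for the mitotic genes, all 20 of them above 0 by sign, and 0.32 for the S phase genes, 14 of 18 above 0, against -0.03 for all genes. Every IEL array lay above every Type-1 array in 19 of the 48 genes, where 10.0% of all genes did, and below in 3, where 9.78% did. The 3 were Cdt1, Ccnd3 and Cdk4.

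Mki67 again differed most, by 2.50 ± 0.36 (adjusted p = 0.0011). Kif11 differed by 1.47 ± 0.30 (0.013), Top2a by 1.38 ± 0.25 (0.0050), Nusap1 by 1.36 ± 0.35 (0.041) and Ccnb2 by 1.29 ± 0.24 (0.0059), with the adjusted p in brackets. Cdk1 differed by 1.26 ± 0.32 (0.040) and Birc5 by 1.11 ± 0.28 (0.040). Cdc6 differed by 1.14 ± 0.27 (0.030), Tyms by 0.87 ± 0.21 (0.033) and Cdkn1a by 1.66 ± 0.35 (0.014). Ccna2 and Rrm2, which passed against Naive-like cells, did not pass here, at 1.12 ± 0.39 (0.16) and 0.92 ± 0.28 (0.0997). Neither gene passed between the 2 lymph node subsets. With the replicate number of the titles as a block for all 9 arrays, Naive-like cells included, 12 genes passed, 9 of them among the 10. Cdk1 did not pass in that fit (adjusted p = 0.057), while Rrm2 (0.015), Cdc45 (0.045) and Cdk6 (0.045) did. The running numbers of the descriptions match the same IEL and Type-1 arrays and differ only in the Naive-like arrays. With them as a block 10 genes passed, 9 of them among the 10.

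Cdk6, a kinase partner of the D-type cyclins, differed from Type-1 cells with a wide spread. It had 6.55, 6.67 and 7.52 in IELs, 3.87, 5.87 and 6.44 in Type-1 cells and 6.38, 6.69 and 6.67 in Naive-like cells. Type-1 replicate 1 was the lowest array by far, and the difference of 1.52 ± 0.51 did not pass (adjusted p = 0.14). It passed without Type-1 replicate 3, at 2.04 (adjusted p = 0.033). Cdk2, the kinase partner of E- and A-type cyclins, had 5.53, 6.34 and 6.65 in IELs, 4.92, 5.61 and 5.72 in Type-1 cells and 5.78, 6.00 and 6.05 in Naive-like cells (0.76 ± 0.30, adjusted p = 0.21). It passed without IEL replicate 1, at 1.08 (adjusted p = 0.039). Ccnd3 lay at -0.55 ± 0.21 (adjusted p = 0.19) and passed as lower after a second quantile normalization (-0.72, adjusted p = 0.036) and after cyclic loess (-0.68, adjusted p = 0.043).

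With each array left out in turn, Mki67, Top2a, Ccnb2 and Kif11 passed against Type-1 cells every time, 4 of the 10 genes. The count was 6 without IEL replicate 2, 4 without IEL replicate 3, 5 without Naive-like replicate 1, 6 without Type-1 replicate 1 and 5 without Type-1 replicate 2. The highest adjusted p of the 6 other genes was 0.13 for Cdc6, 0.077 for Cdkn1a and 0.18 for Birc5, each without IEL replicate 3, 0.14 for Nusap1 without the same array, 0.12 for Tyms without it, and 0.17 for Cdk1 without IEL replicate 2. Without IEL replicate 1, 15 genes passed, among them Ccna2 (0.0035), Aurkb (0.017), Bub1b (0.037), Cdc45 (0.042) and Tpx2 (0.0494).

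Type-1 against Naive-like cells, the 2 lymph node subsets, gave no call among the 48 genes. By limma 0 genes passed, where 0.284% of all genes did (0.212% higher and 0.0721% lower), and at an unadjusted p under 0.05 there were 0 higher and 2 lower genes, where 6.48% of all genes passed. The 2 lower genes were E2f2 (-0.56 ± 0.22, adjusted p = 0.68) and Cdk6 (-1.18 ± 0.51, adjusted p = 0.73), the second with Type-1 replicate 1 far below the rest. The median difference was 0.12 for the mitotic genes and 0.18 for the S phase genes, against 0.03 for all genes. By sign 13 of 20 mitotic and 10 of 18 S phase genes lay above 0.

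The intervals of single genes limit what this comparison can show. Mki67 differed by 0.06 with a 95% interval of -0.72 to 0.84, and Top2a by 0.22 with an interval of -0.32 to 0.75. These intervals rest on 1 spread per gene shared by all 3 subsets, so the spread of the IEL arrays enters them. The SD of Mki67 was 0.89 in IELs, 0.13 in Type-1 cells and 0.30 in Naive-like cells, and that of Top2a 0.53, 0.04 and 0.07. Ccna2 differed by 0.37 (interval -0.48 to 1.23) and Rrm2 by 0.52 (interval -0.09 to 1.14). Every Type-1 array lay above every Naive-like array in 2 genes, Tyms and Top2a, where 6.33% of all genes did so. Every Type-1 array lay below in 5 genes, Mcm6, E2f2, Aurka, Bub1b and Cdk2, where 5.11% of all genes did so.

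**Figure D3:**
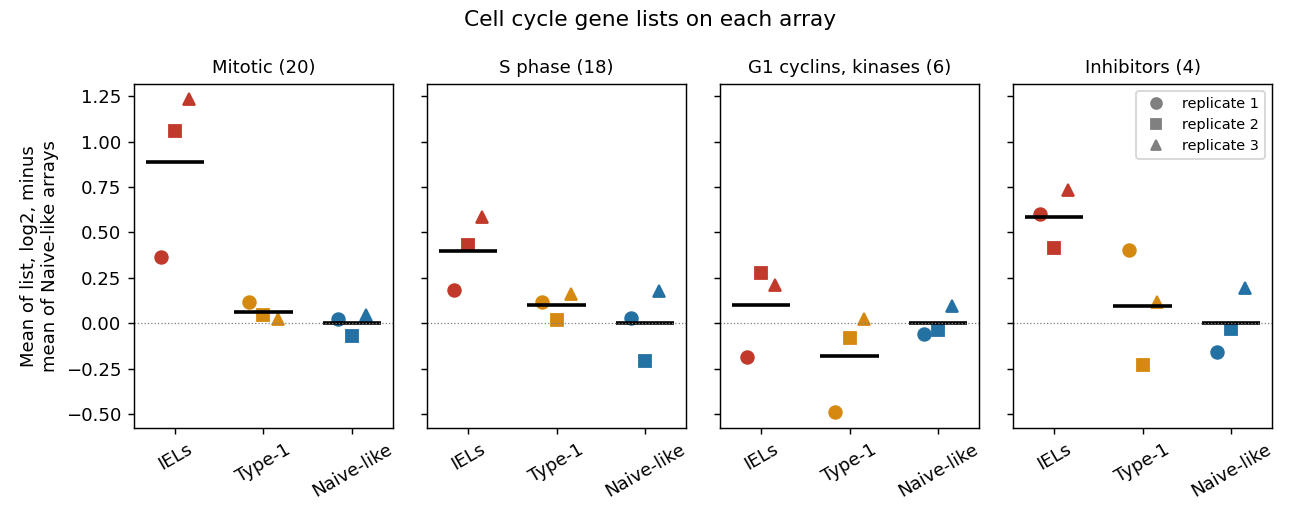
Mean log2 value of each list on each array, minus the mean of the 3 Naive-like arrays, for the mitotic, S phase, G1 and inhibitor genes, with IELs, Type-1 and Naive-like cells from left to right. Points are arrays and the line is their mean. The mitotic list stands at 0.36, 1.06 and 1.23 in IELs and between -0.07 and 0.11 on the 6 lymph node arrays.

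The mitotic genes varied more between IEL arrays than between arrays of the other subsets. As a mean over the list, they stood at 0.36, 1.06 and 1.23 above the mean of Naive-like cells in IEL replicates 1, 2 and 3, at 0.11, 0.05 and 0.02 in Type-1 cells and at 0.02, -0.07 and 0.05 in Naive-like cells. IEL replicate 1 was the lowest IEL array in 19 of 20 mitotic genes, against 39.7% of all genes, and IEL replicate 3 the highest in 13 of 20, against 29.5% of all genes. The median SD of a mitotic gene was 0.54 over IELs, 0.17 over Type-1 cells and 0.16 over Naive-like cells, against 0.25, 0.27 and 0.23 for all genes in the same order of subsets. The S phase list stood at 0.18, 0.43 and 0.59 in IELs, 0.12, 0.02 and 0.16 in Type-1 cells and 0.03, -0.21 and 0.18 in Naive-like cells. In the S phase list IEL replicate 1 thus stood at the level of Naive-like replicate 3, the highest Naive-like array, and IEL replicate 1 was the lowest IEL array in 11 of 18 S phase genes. Without IEL replicate 1 the median difference from Naive-like cells was 0.95 for the mitotic genes and 0.41 for the S phase genes.

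Replicate 3 of each subset carries a date-like code in its description, which the other arrays lack. In the coded arrays the median difference of the mitotic genes was 0.95 against Naive-like cells and 1.02 against Type-1 cells, and in the other arrays it was 0.52 and 0.53. In all 12 genes that passed against Naive-like cells every IEL array lay above every Naive-like array. The same held in all 10 that passed against Type-1 cells, with respect to the Type-1 arrays. Their direction within the coded arrays and within the others was thus fixed beforehand, and no conclusion is drawn from it. With the 6 uncoded arrays alone, 2 genes passed against Naive-like cells, Mki67 and Top2a, and 1 against Type-1 cells, Mki67.

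**Figure D4:**
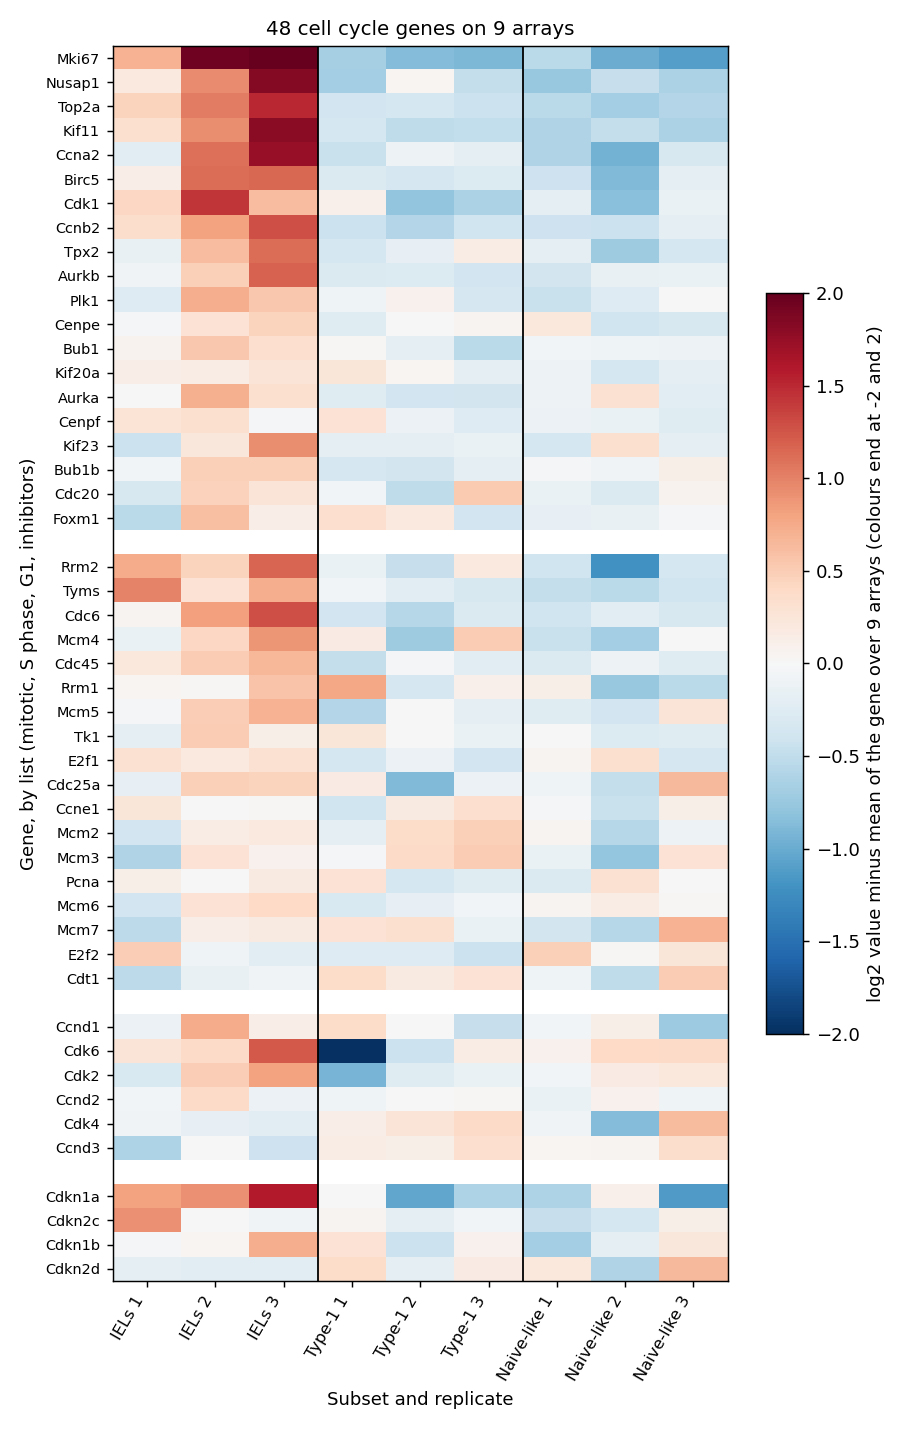
Values of the 48 genes (rows, grouped by list) on the 9 arrays (columns, IELs, Type-1 and Naive-like cells from left to right), each as the log2 value minus the mean of that gene over the arrays. Red is above and blue below that mean, and the colours end at -2 and 2. Most mitotic rows are red in IEL replicates 2 and 3 and paler or blue in IEL replicate 1.

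Further genes of both programmes, listed apart from the 50, also moved in IELs. They were chosen with earlier results of these data known and were read on the same arrays, so they are not separate evidence. The counts of these and the marker lists below stand against 3.57% of all genes that rose and 1.62% that fell against Naive-like cells, and 3.73% and 1.41% against Type-1 cells. Of 37 other S phase genes 6 rose in IELs against Naive-like cells (16.2%) and 0 fell, with a median difference of 0.56. As a mean over this list, they stood at 0.50, 0.50 and 0.59 above Naive-like cells in IEL replicates 1, 2 and 3. The highest Naive-like array stood at 0.20, so IEL replicate 1 lay above it, unlike in the S phase list above. Gmnn, the inhibitor of Cdt1, had 7.39, 6.76 and 6.89 in IELs, 6.50, 5.75 and 6.01 in Type-1 cells and 5.15, 5.30 and 5.63 in Naive-like cells. The 3 subsets were separate in that order, and IELs exceeded Naive-like cells by 1.65 ± 0.25 (adjusted p = 0.0015). Dtl, which directs Cdt1 to degradation, rose by 1.63 ± 0.36 (adjusted p = 0.017), the clamp loader subunit Rfc2 by 1.05 ± 0.24 (adjusted p = 0.021) and the histone mRNA binding protein Slbp by 1.04 ± 0.20 (adjusted p = 0.0083). Against Type-1 cells 5 of the 37 rose and 0 fell (median 0.42), led by Dtl (1.49 ± 0.36, adjusted p = 0.030) and by Rpa2, a subunit of the single-strand DNA binding complex (1.34 ± 0.28, adjusted p = 0.014). Between Type-1 and Naive-like cells 0 of 37 passed by limma, where 0.284% of all genes did. At an unadjusted p under 0.05 there were 3 of 37, where 6.48% of all genes passed.

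Of 53 other mitotic genes 11 rose in IELs against Naive-like cells (20.8%) and 2 fell (3.77%), with a median difference of 0.56. The medians of the further mitotic and S phase lists were thus alike, unlike the 0.65 and 0.24 of the mitotic and S phase genes among the 48. Racgap1, a cytokinesis regulator, had 6.95, 7.11 and 7.25 in IELs, 5.66, 6.58 and 6.77 in Type-1 cells and 5.27, 5.00 and 5.73 in Naive-like cells (1.77 ± 0.29, adjusted p = 0.0026). Its IEL arrays stood above all others, and Type-1 cells spread over more than 1 log2 unit. Wee1, the kinase that restrains Cdk1, rose by 1.74 ± 0.38 (adjusted p = 0.018), and Cks2, a small subunit of Cdk1 complexes, by 1.57 ± 0.22 (adjusted p = 8.37e-04). Smc4, a condensin subunit, fell, at 9.41, 9.35 and 9.68 in IELs, 10.78, 10.05 and 10.65 in Type-1 cells and 10.83, 11.25 and 11.33 in Naive-like cells (-1.66 ± 0.24, adjusted p = 8.99e-04). The 3 subsets were separate, with IELs lowest. Against Type-1 cells 6 rose and 2 fell (median 0.44), with the kinesin Kif15 at 1.30 ± 0.21 (adjusted p = 0.0027), the nuclear lamina gene Lmnb1 at 1.19 ± 0.28 (adjusted p = 0.025), the centromeric histone Cenpa at 1.02 ± 0.22 (adjusted p = 0.018) and the phosphatase Cdc25b at -1.07 ± 0.23 (adjusted p = 0.016). Between Type-1 and Naive-like cells 0 of 53 passed by limma, where 0.284% of all genes did. At an unadjusted p under 0.05 there were 4 of 53, where 6.48% of all genes passed.

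Other markers moved with the IEL arrays as well. Of 24 genes of the intestinal epithelium 16 rose in IELs against Naive-like cells and 14 against Type-1 cells, and the sum of their linear values was 1554 to 2765 in IELs, 474 to 527 in Type-1 cells and 460 to 519 in Naive-like cells. Fabp2 (3.94 ± 0.36), Dmbt1 (3.83 ± 0.49), Cdh1 (3.71 ± 0.37) and Fabp1 (3.23 ± 0.55) differed most from Naive-like cells. As a mean over the list, the epithelial genes stood at 1.43, 1.99 and 1.27 above Naive-like cells in IEL replicates 1, 2 and 3.

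Of 12 genes of crypt progenitors, the dividing cells of the gut epithelium, 3 rose and 0 fell against Naive-like cells (Olfm4, Cd44 and Rnf43), and 1 rose and 0 fell against Type-1 cells (Olfm4). Cd44 is also in the list of T cell activation genes. Among the crypt genes it had the largest difference of Type-1 from Naive-like cells, at 2.16, so the sums below include it in both IELs and Type-1 cells. By sign 8 of the 12 lay above 0 in IELs against Naive-like cells (median 0.14) and 4 of 12 in IELs against Type-1 cells (median -0.22). The sum of the crypt list was 362 to 590 in IELs, 398 to 510 in Type-1 cells and 353 to 390 in Naive-like cells. Olfm4 had 6.20, 7.44 and 6.50 in IELs, 3.81, 3.67 and 3.72 in Type-1 cells and 3.74, 4.13 and 3.93 in Naive-like cells. As a mean over the list, the crypt genes stood at 0.13, 0.61 and 0.46 above Naive-like cells in IEL replicates 1, 2 and 3. By this mean IEL replicate 1 was the lowest IEL array, as in the mitotic list and in the lists of the next paragraph. By gene it was lowest in 7 of 12 crypt genes, against 39.7% of all genes. The deposited scale has no zero, and no marker is listed at 0. The part of epithelial RNA in the cell cycle differences was not tested.

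Heat shock genes rose in 10 of 10 against Naive-like cells and in 8 of 10 against Type-1 cells, with sums of 12498 to 13322 in IELs, 3238 to 5518 in Type-1 cells and 2392 to 3812 in Naive-like cells. Of 16 immediate early genes 7 rose and 1 fell against Naive-like cells, with sums of 6020 to 11796 in IELs, 1836 to 4215 in Type-1 cells and 2333 to 3638 in Naive-like cells. In IEL replicates 1, 2 and 3 the immediate early list stood at 0.79, 1.39 and 1.42 above Naive-like cells, a list of T cell activation genes at 0.39, 0.73 and 1.00, and the heat shock list at 1.75, 1.81 and 1.81. By list mean IEL replicate 1 was the lowest IEL array in all 3 of these lists, in the heat shock list only by little. By gene it was lowest in 13 of 16 immediate early genes and 10 of 15 activation genes, against 39.7% of all genes. In the heat shock list it was lowest in 4 of 10 genes, as often as IEL replicate 3. In the mitotic list it was lowest in 19 of 20. By list mean it was also the lowest IEL array for T cell quiescence, γδ T cell identity, B cells, macrophages and dendritic cells, and αβ T cells. By gene it was lowest there in 12 of 18, 6 of 9, 6 of 8, 4 of 9 and 3 of 5. A low IEL replicate 1 was thus not particular to the mitotic, immediate early or activation lists. B cell markers gave 0 higher and 1 lower of 8 against Naive-like cells (Ighm, -1.25 ± 0.21), markers of macrophages and dendritic cells 1 higher of 9 (Itgax, 4.86 ± 0.29) and of αβ T cells 1 lower of 5 (Themis, -1.11 ± 0.27). Of 9 measured genes of γδ T cell identity 2 fell in IELs against Naive-like cells, Id3 and Cd27. The part of these genes in the cell cycle differences was not tested.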

How the data were processed

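RNA of 9 samples was measured on 9 arrays, and subsets were taken from the sample titles. The authors deposited log2 values for 41345 array rows, and the submitters' processing notes name oligo and RMA for them. Their versions and filters are not stated in the sources used. Of the rows 23521 had 1 gene symbol in the platform annotation, 1814 several and 16010 none. The rows with 1 symbol stand for 22180 genes. The row of highest mean represented each gene, and R 4.3.3 with limma 3.58.1 fitted all of them (1 mean per subset, lmFit and eBayes, Benjamini-Hochberg adjustment, threshold 0.05). All 9 arrays entered 1 fit with 6 residual degrees of freedom. The fit was tested on simulated data. Deviations of same-numbered arrays from their subset means correlated at 0.161, 0.104 and 0.303 between IELs and Type-1 cells, a pattern of the data, and no label states a pairing. The replicate numbers of the titles therefore entered an alternative fit as a block for all 9 arrays. Against Naive-like cells some same-numbered pairs were below 0.1. Precision is limited by the number of arrays.

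The 50 genes, their grouping and the further gene lists were chosen with earlier results of these data known. Of each further list, up to 4 genes with the largest difference among those that passed were named. Cd3d, Cd3e and Cd3g were named outside this rule, after their values were seen. Alternatives changed normalization, the filter on dim genes, the spread, the rows per gene, the samples and the blocks, and left out each array in turn. Promoter motifs were searched in the RefSeq windows of GRCm38.p6.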

Additional observations from a re-analysis of the deposited data

How the results depend on the processing

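The 22 alternatives, 9 of which left out 1 array each, reversed no difference of a gene that passed. Settings that only left out arrays could not do so for the calls of the main fit. In each of these every IEL array lay above every array compared. The blocks, the setting of the spread by trend and the fit of 2 subsets left the differences themselves unchanged. Mki67 passed in all 22 alternatives in both comparisons of IELs, and Top2a in all against Naive-like cells. Against Naive-like cells the count of 12 became 7 when genes below the 40th percentile of mean level were left out, which leaves 37 of the 48 genes, and 2 with only the 6 arrays without the date-like code, and it ran from 6 to 15 with 1 array left out. Against Type-1 cells the count of 10 became 6 and 1 under the same settings and 5 with only the 2 subsets compared in the fit, and it ran from 4 to 15 with 1 array left out. The filter on dim genes kept 11 of the 20 mitotic and 17 of the 18 S phase genes. It left out Kif11, Cdk1, Ccna2, Birc5 and Cdc6, which had passed in a comparison of IELs. The 7 other calls against Naive-like cells and the 6 others against Type-1 cells held. The cause of the other shifts was not tested beyond the fewer arrays that each setting holds. The median difference from Naive-like cells ran from 0.46 to 0.95 for the mitotic genes and from 0.19 to 0.41 for the S phase genes with 1 array left out. Type-1 against Naive-like cells kept a count of 0 throughout. With the replicate number of the titles as a block the counts were 11 against Naive-like cells, 12 against Type-1 cells and 0 between the lymph node subsets, and with the running numbers of the descriptions as a block 12, 10 and 0. Correlations of same-numbered arrays against Naive-like cells ran from -0.01 to 0.38 by the titles and from 0.07 to 0.38 by the descriptions. In both numberings the highest value was that of the arrays with the date-like code. Whether either numbering pairs the Naive-like arrays cannot be told from these values. Alternatives were run for the 48 genes and not for the further lists, and differences of dim genes are limited by an unknown background.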

Other observations

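Genes of resting T cells moved both ways in IELs. Of 18 genes listed for T cell quiescence 4 rose and 5 fell against Naive-like cells, and 3 rose and 4 fell against Type-1 cells. Over all genes 3.57% rose and 1.62% fell in the first comparison and 3.73% and 1.41% in the second. S1pr1, the receptor that lets T cells leave lymph nodes, had 4.53, 5.31 and 5.74 in IELs, 8.95, 9.11 and 9.91 in Type-1 cells and 9.90, 9.83 and 10.36 in Naive-like cells. IELs stood far below both lymph node subsets, by -4.83 ± 0.33 against Naive-like cells (log2 ± SE, n = 3 arrays each, limma adjusted p = 2.97e-06). Ccr7, the homing receptor of lymph nodes, fell by 2.94 ± 0.29 (adjusted p = 4.72e-05), the interleukin receptor chain Il7r by 2.02 ± 0.23 (adjusted p = 1.35e-04) and Klf2, the transcription factor that drives S1pr1, by 1.89 ± 0.32 (adjusted p = 0.0031). The 4 that rose were Klf6, Foxo3, Tob1 and Btg2, at 0.97 to 1.33, and these 4 were named after their values were seen.

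Of 15 genes of T cell activation 6 rose in IELs against Naive-like cells, where 3.57% of all genes rose. Tnfrsf9, a costimulatory receptor, had 7.94, 7.89 and 8.28 in IELs, 5.77, 6.26 and 5.94 in Type-1 cells and 5.87, 5.75 and 6.06 in Naive-like cells (2.14 ± 0.21 over Naive-like cells, adjusted p = 4.09e-05). The lymph node subsets overlapped below the IEL arrays. Nr4a1, a gene induced by T cell receptor signals that is also in the immediate early list, rose by 2.12 ± 0.36, and the transcription factor Irf4 by 1.91 ± 0.19. Il2rb, a chain of the interleukin receptors of activated T cells, had 9.34, 10.63 and 10.40 in IELs, 10.28, 10.66 and 11.07 in Type-1 cells and 8.50, 8.04 and 8.49 in Naive-like cells. Type-1 cells lay above Naive-like cells by 2.32 ± 0.33 (adjusted p = 0.0073), and Cd44 by 2.16 ± 0.26 (adjusted p = 0.0028), the 2 activation genes that rose in that comparison, in which 0 of the 48 cell cycle genes passed and 0.212% of all genes rose. Of 18 genes of the retinoblastoma and E2F families and their partners, Rb1, which restrains E2F factors, was the 1 that passed. This share of 5.56% was near that of all genes, of which 3.57% rose against Naive-like cells and 3.73% against Type-1 cells. Rb1 had 8.36, 8.82 and 9.07 in IELs, 7.15, 7.79 and 7.56 in Type-1 cells and 7.45, 7.69 and 8.02 in Naive-like cells, 1.03 ± 0.25 over Naive-like cells (adjusted p = 0.032) and 1.25 ± 0.25 over Type-1 cells (adjusted p = 0.011).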
